A study of Mus musculus with 9 samples.

Results

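Pancreatic islets of mice kept on a high fat diet were compared with islets of mice kept on a low fat diet, gene by gene, in polyadenylated RNA. The comparison took every library labelled HFD (60% fat, 2 samples) and every library labelled LFD (10% fat, 3 samples), which together are 5 of the 9 samples of the series. The other 4 came from a ketogenic diet (KD, 89.9% fat) and entered the model only to help estimate the spread between libraries. All animals were wild-type C57BL/6J males that were 15 weeks old when feeding began and stayed on their diet for 9 months, so diet is the one labelled difference between the groups. The labels do not say whether a sample is 1 animal or a pool, and body weight and blood glucose were not analysed here. The p-values therefore measure only the spread between these samples. The labels give no isolation day or sequencing batch, so a batch effect and a diet effect cannot be told apart here.

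Islets are small clusters of endocrine cells scattered through the exocrine pancreas. Beta cells secrete insulin, alpha cells glucagon and delta cells somatostatin, and a dense bed of fenestrated capillaries carries these hormones away. Under long feeding of dietary fat the rodent beta cell mass is known to grow and its capillaries to adapt. Immediate-early genes are a separate class: they code for transcription factors and feedback regulators whose transcripts appear within minutes of a stimulus, a calcium signal, a cytokine or mechanical stress, and disappear quickly. They are also known to respond to tissue dissociation.

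The libraries held between 15513502 and 18008388 counts in the LFD and HFD groups. The transcripts that define islets were abundant. Levels are given in CPM, the usual unit of counts relative to library size, here with sizes scaled by the TMM method. The insulin gene Ins2 was at 35510, 35978 and 48202 across LFD replicates 1 to 3, then at 66138 and 43896 across HFD replicates 1 and 2. Exocrine RNA was abundant too: 43 acinar markers, genes of digestive enzymes and their secretion, held 37.3%, 26.2% and 15.7% of all counts on LFD and 19.8% and 11.8% on HFD, with libraries in the order of their replicate numbers as everywhere below. The ranges overlapped, and a one-sided exact permutation test of 2 against 3 libraries cannot give a p below 0.1. Because the RNA is from whole islets, fewer cells of a type and less RNA per cell cannot be told apart in any value that follows.

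Of 18548 genes tested, none passed an adjusted p of 0.05 in edgeR's quasi-likelihood test (0% called), and the smallest adjusted p was 0.134. At an unadjusted p below 0.05 there were 1853 genes, 658 higher on HFD (3.55% of genes tested) and 1195 lower (6.44%). The 5 libraries separated without overlap for 2486 genes higher on HFD (13.4%) and 2613 lower (14.1%). DESeq2, run as the alternative, called 21 genes higher (0.113%) and 247 lower (1.33%) of 18533, and all 268 were also below an unadjusted p of 0.05 in edgeR. The median log2 difference of all genes was -0.002, a value that TMM scaling itself holds near 0. These percentages are the background against which each gene group below is read. In each group, "passed" counts members at an unadjusted p below 0.05 in edgeR, none of which passed the adjusted threshold. When a single LFD or KD library was left out, the background moved too. It was highest without LFD replicate 3, at 6.77% higher and 9.06% lower. The lowest shares among these omissions were 1.98% higher without LFD replicate 1 and 4.21% lower without LFD replicate 2. Counts for omitted LFD or KD libraries are to be read beside these shares. When an HFD library was left out, that group held 1 sample, so only medians of the lists are given for those fits.

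**Figure D1:**
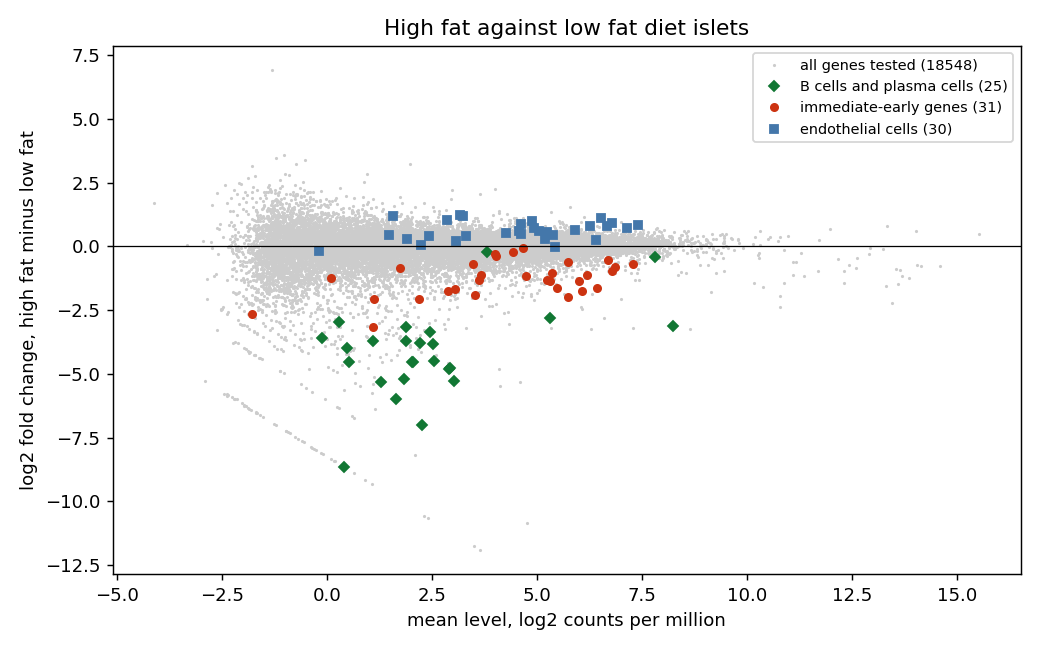
Log2 difference between high and low fat diet islets (vertical axis, high minus low) against the mean level (horizontal axis, log2 CPM) of every gene tested, 1 point a gene, with 3 gene lists coloured. All 31 immediate-early genes (red circles) and all 25 B cell genes (green diamonds) lie below 0, and 28 of 30 endothelial genes (blue squares) lie above it.

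Immediate-early genes were lower on HFD as a group, and 31 of 32 listed could be tested. All 31 were lower on HFD, with a median log2 difference of -1.23. Of these, 24 passed against a background of 6.44% of genes, the 5 libraries separated for 21, and DESeq2 called 14. To show the control regions shared by some of these genes, the 250 bases before the start site are given for 4 of them, 3 that carry the half-site through which CREB and related factors act and 1 that carries the serum response (CArG) box. The sequences are RefSeq's for build GRCm38.p6, 5′ to 3′ on the strand of the gene, with the motif in capitals.
Atf3, chr1:191183334-191183583, minus strand: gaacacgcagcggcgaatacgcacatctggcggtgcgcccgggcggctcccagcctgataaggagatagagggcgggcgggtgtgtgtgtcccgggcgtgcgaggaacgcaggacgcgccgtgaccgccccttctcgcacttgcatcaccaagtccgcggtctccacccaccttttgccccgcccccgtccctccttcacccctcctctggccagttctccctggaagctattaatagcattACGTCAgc
Btg2, chr1:134079156-134079405, minus strand: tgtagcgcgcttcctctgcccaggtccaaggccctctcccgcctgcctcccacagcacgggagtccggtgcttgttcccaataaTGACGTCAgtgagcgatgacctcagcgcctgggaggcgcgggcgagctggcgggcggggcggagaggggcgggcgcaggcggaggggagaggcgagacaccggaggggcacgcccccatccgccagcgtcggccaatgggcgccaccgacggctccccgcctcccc
Fos, chr12:85473640-85473889, plus strand: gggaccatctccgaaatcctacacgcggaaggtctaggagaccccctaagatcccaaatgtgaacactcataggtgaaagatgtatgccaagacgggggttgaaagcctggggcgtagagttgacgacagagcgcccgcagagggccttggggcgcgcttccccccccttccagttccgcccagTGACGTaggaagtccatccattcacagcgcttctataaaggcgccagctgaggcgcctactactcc
Zfp36, chr7:28379229-28379478, minus strand: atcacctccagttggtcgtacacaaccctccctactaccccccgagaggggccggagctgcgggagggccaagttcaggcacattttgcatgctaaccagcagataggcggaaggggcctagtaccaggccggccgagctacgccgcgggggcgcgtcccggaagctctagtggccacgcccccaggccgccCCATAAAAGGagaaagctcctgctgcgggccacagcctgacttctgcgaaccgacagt
The half-site was searched as TGACGT on either strand, which also takes in the full palindromic element that Btg2 carries. It was present before 9 of the 24 tested immediate-early genes with a RefSeq window (37.5%) and before 1971 of 27025 genes in all (7.29%). The CArG box was present before 3 of the 24 (12.5%) and before 439 of all 27025 (1.62%). A match describes letters in this window and not binding. Elements further upstream were not searched, so a gene without a match here can still carry one.

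Among the transcription factors of the list, Egr1, a zinc finger factor induced by growth and calcium signals, was at 168, 140.1 and 84.7 CPM on LFD and at 35.7 and 49.0 CPM on HFD. Its log2 difference was -1.63 ± 0.28 (SE), with an adjusted p of 0.134 in edgeR and 2.34e-05 in DESeq2. Every HFD library lay below every LFD library. Atf3, a stress-induced member of the ATF/CREB family, was at 80.4, 67.8 and 51.9 CPM in the LFD libraries and at 21.5 and 21.998 CPM in the HFD libraries, a log2 difference of -1.62 ± 0.26 (SE). The half-site in its upstream sequence lies close to the start. Junb, a subunit of the AP-1 factor, was at 119.7, 123 and 67.3 CPM on LFD and at 23.01 and 37.6 CPM on HFD. Fos, the classical AP-1 subunit, was at 173, 162 and 106 CPM against 64.9 and 84.4 CPM, and its log2 difference of -0.98 ± 0.23 (SE) was smaller than that of Junb (-1.77 ± 0.31). Csrnp1, a nuclear protein of the same early class, was at 21.8, 22.05 and 10.6 CPM on LFD and 4.40 and 5.15 CPM on HFD. For each of these genes LFD replicate 3 was the lowest LFD library and still lay above both HFD libraries.

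The feedback regulators of the early response had the same direction. Zfp36, which binds AU-rich elements and speeds decay of cytokine mRNAs, was at 115, 88.5 and 51.5 CPM in the LFD libraries and at 17.9 and 24.6 CPM in the HFD libraries, a log2 difference of -2.001 ± 0.34 (SE). Btg2, an antiproliferative gene, was at 219.5, 212 and 142 CPM on LFD and at 112 and 127 CPM on HFD. Its log2 difference of -0.68 ± 0.20 (SE) had an adjusted p of 0.0983 in DESeq2. Outside the list, 3 further genes of rapid response were among the 12 lowest p-values. Gadd45b, a stress sensor that acts on MAP kinase signalling, had the lowest of these, with 20.6, 28.6 and 20.2 CPM on LFD and 5.45 and 7.46 CPM on HFD (log2 difference -1.84 ± 0.25, SE). Socs3, which shuts off STAT3 signalling after cytokine exposure, was at 31.0, 31.1 and 23.5 CPM against 6.90 and 11.6 CPM. Bhlhe40, a repressor induced by hypoxia and by light or feeding cues to the clock, was at 79.6, 63.2 and 50.5 CPM against 18.7 and 27.2 CPM. DESeq2 adjusted p-values for these 3 ran from 4.07e-08 (Gadd45b) to 2.72e-06 (Bhlhe40).

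Not every early gene separated the diets. Nr4a1, an orphan nuclear receptor induced by glucose and cAMP in beta cells, was at 78.9, 82.4 and 32.8 CPM on LFD and 38.0 and 45.9 CPM on HFD, so the groups overlapped. Fos, Junb, Btg2 and Nr4a1 were named for their standing in the field after their values were seen.

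**Figure D2:**
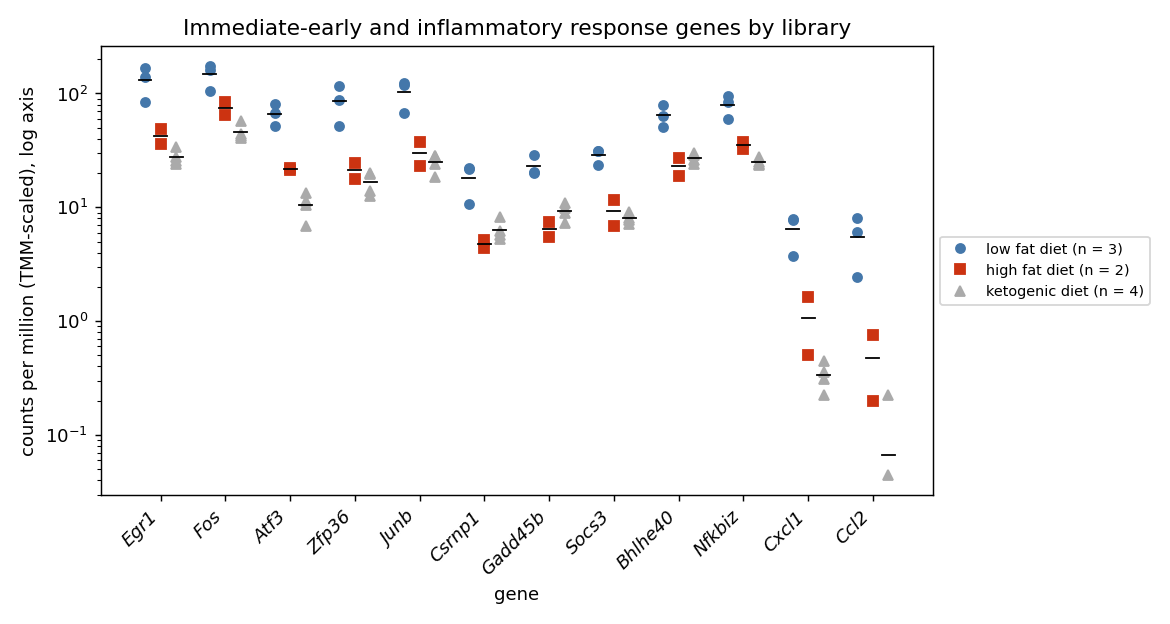
Level of 12 immediate-early and inflammatory response genes in each library (log axis, CPM), with low fat libraries as blue circles, high fat libraries as red squares, ketogenic libraries as grey triangles and the group mean as a bar. Both high fat libraries lie below all 3 low fat libraries for every gene drawn, which the choice of genes largely fixed. Many were named by a rule that requires this separation, and Fos and Junb were named after their values were seen. Nr4a1, which overlaps, is not drawn. The 2 ketogenic libraries with no Ccl2 counts are not drawn, since 0 has no place on a log axis.

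Lymphocyte and acinar transcripts varied across the same libraries. The mean log2 CPM of the 31 early genes was 4.95, 4.97 and 3.997 on LFD and 3.31 and 3.62 on HFD. The 25 B cell genes had means of 3.07, 4.13 and 1.49 against -0.67 and -0.22. In both lists LFD replicate 3 lay nearest to HFD. With an acinar score as a covariate, 18 early genes passed against a background of 4.78%. When LFD replicates 1 and 2 were both left out, a choice made after seeing the data, 9 of the 30 genes then tested passed against a background of 2.55%, with a median of -0.49. The ketogenic islets, which share the LFD libraries as controls and so are no independent evidence, had early gene means between 3.09 and 3.39. The part of lymphocytes and of residual differences in acinar tissue in these values was not tested.

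Inflammatory signals formed the neighbouring group. Of 29 tested cytokines, chemokines and NF-kB targets, 16 passed as lower and none as higher, the median log2 difference was -1.34, and DESeq2 called 12. The median was -0.709 without LFD replicate 2 and -0.585 with a filter of 5 CPM, which leaves 17 genes. Nfkbiz, a nuclear regulator of NF-kB target genes, was at 96.0, 83.7 and 59.2 CPM on LFD and at 37.2 and 32.7 CPM on HFD (log2 difference -1.19 ± 0.20, SE, adjusted p of 0.134 in edgeR). Nfkbia, the inhibitor that NF-kB induces to end its own activity, was at 84.7, 73.4 and 42.6 CPM against 25.3 and 30.1 CPM. The chemokine Cxcl1, which attracts neutrophils, was at 7.97, 7.66 and 3.75 CPM against 0.50 and 1.63 CPM. Ccl2, which attracts monocytes, was at 6.01, 7.98 and 2.44 CPM against 0.20 and 0.75 CPM. Il6, a cytokine made by stromal and immune cells, was at 9.63, 4.48 and 3.38 CPM against 0.10 and 1.13 CPM. Groups did not overlap for any of the 5. Without LFD replicates 1 and 2 the count was 6 of 29.

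Most lymphocyte genes had fewer counts on HFD than on LFD. All 25 tested B cell genes were lower on HFD, 22 passed, and the median log2 difference was -3.98. Of 25 tested T and NK cell genes, 21 passed as lower, with a median of -3.17. Some of these genes entered the test through their LFD levels. Cd3d, for example, had means of 1.37 CPM on LFD, 0.03 on HFD and 0.04 on KD. Such a gene could hardly come out higher on HFD, so these counts are no independent support. With a filter of 5 CPM, 13 of 15 B cell genes and 1 of 3 T and NK cell genes passed as lower. The medians were -3.845 and -0.193, in a fit where 6.54% of all genes passed as lower. Pax5, the factor that fixes B cell identity, had 597 counts over the 3 LFD libraries and 3 over the 2 HFD libraries, a ratio on TMM-scaled library sizes of 146 with an exact 95% interval for counting error of 49.6 to 708. Its LFD levels were 6.93, 19.1 and 2.67 CPM, so replicates differed widely among themselves. The B cell receptor subunits Cd79a and Cd79b had 609 and 669 counts on LFD and 42 and 21 on HFD. Tnfrsf13c, the receptor for the B cell survival factor BAFF and chosen here after its values were seen, had 161 counts on LFD and 0 on HFD. The exact 95% interval for counting error of its ratio starts at 31.6. Ms4a1 (CD20), Spib, Cxcr5 and Bank1, further genes of mature B cells, had 939, 383, 428 and 845 counts on LFD against 18, 4, 8 and 23 on HFD.

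The same libraries carried Cxcl13, the chemokine that draws B cells into follicles, at 28.1, 13.4 and 1.17 CPM on LFD and at 0.90 and 0.29 CPM on HFD. T cell genes were rarer. The receptor subunit Cd3d was at 1.04, 2.55 and 0.52 CPM on LFD and had 1 count over the 2 HFD libraries. Follicle and lymph node genes of this kind are known from lymphoid tissue that lies against the pancreas, and how much such tissue each preparation held was not tested. The summed level of the B cell list ran from 304 to 1794 CPM on LFD and from 272 to 291 CPM on HFD, so that the lowest LFD library was close to HFD in the sum. The antibody genes Ighm and Jchain, chosen after their values were seen, still had 2720 and 416 counts on HFD and overlapped between diets. Skap1 of the T cell list, chosen in the same way, was at 11.8, 12.8 and 16.04 CPM against 21.9 and 17.8 CPM, above LFD in both HFD libraries, and did not pass. Xbp1, which secretory cells of the pancreas also express, alone had 8344 counts on HFD and carried much of that sum. Without LFD replicates 1 and 2, 11 of the 23 B cell genes and 3 of the 17 T and NK cell genes then tested passed as lower, and without LFD replicate 2 alone 8 of 17 T and NK cell genes did. Of 32 macrophage and dendritic cell genes tested, 1 passed in each direction and the median was -0.18, which ran from -0.387 (5 lower, without LFD replicate 3) to 0.128 (without LFD replicate 2). Their LFD means of 2.60, 2.97 and 1.96 log2 CPM had the same order as those of the B cell genes.

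In the opposite direction, endothelial transcripts were higher on HFD. Of 30 tested markers, 28 were above 0, 16 passed against a background of 3.55%, the libraries separated for 21, and the median log2 difference was 0.61. Col13a1 had the lowest p of the list, and receptors for vascular endothelial growth factor were among the genes that passed. Kdr (VEGFR2), the main signalling receptor, was at 75.1, 65.2 and 80.0 CPM on LFD and at 135 and 124 CPM on HFD, a log2 difference of 0.82 ± 0.17 (SE) with an adjusted p of 0.208 in edgeR and 0.00498 in DESeq2. Flt1 (VEGFR1), which also acts as a decoy, was at 116, 106 and 100.4 CPM against 167 and 185 CPM. Tek, the receptor of the angiopoietins, was at 19.3, 16.3 and 16.4 CPM against 33.7 and 29.3 CPM. In each of the 3 the lower HFD library lay well above the highest LFD library.

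Further vascular genes among the lowest p-values fell into matrix, signalling and identity genes. Col13a1, a transmembrane collagen, was at 5.33, 7.17 and 4.92 CPM on LFD and at 13.4 and 13.0 CPM on HFD, a log2 difference of 1.18 ± 0.22 (SE). Egfl7, a matrix protein secreted by endothelium, was at 25.4, 18.8 and 14.2 CPM against 38.7 and 39.4 CPM. Sox18, a factor of endothelial development, was at 6.56, 6.18 and 3.38 CPM against 12.1 and 13.2 CPM. Adgrl4, an adhesion receptor of endothelial cells that was not on the list, was at 36.5, 25.6 and 30.8 CPM against 66.8 and 56.6 CPM, a log2 difference of 0.995 ± 0.19 (SE). Exoc3l2, Arap3 and Car4, 3 more genes outside the list with known endothelial expression, differed by 1.13, 0.86 and 1.53 on the log2 scale. Notch4, the endothelial Notch receptor, differed by 0.79 ± 0.21 (SE). Cd36, a fatty acid translocase of capillaries, fat cells and macrophages, was at 20.2, 17.9 and 10.1 CPM against 36.4 and 29.0 CPM. Plvap, which forms the diaphragms of fenestrae and was chosen after its values were seen, was at 96.0, 73.7 and 59.9 CPM against 159 and 129.6 CPM.

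Some pan-endothelial junction genes overlapped between the groups. Pecam1 was at 98.5, 78.0 and 55.3 CPM on LFD and 96.0 and 88.5 CPM on HFD. Cdh5 (VE-cadherin) was at 45.1, 34.8 and 27.7 CPM against 55.1 and 41.5 CPM. Both were chosen after their values were seen. Vegfa, the growth factor that endocrine cells make for these vessels, had a log2 difference of -0.15 ± 0.14 (SE). Among 30 growth factor and matrix genes of the islet vessels, 1 passed as higher and 2 as lower, with a median of -0.005. These were Notch4 (higher), the placental growth factor Pgf at 17.4, 21.6 and 16.6 CPM against 11.7 and 9.30 CPM, and Thbs1, a matrix protein that restrains vessel growth, at 228, 155 and 63.4 CPM against 70.2 and 79.9 CPM, with overlap.

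Mean log2 CPM of the 30 genes was 4.27, 4.09 and 3.76 on LFD and 4.75 and 4.58 on HFD. Among the LFD libraries this order was also that of the acinar share. The HFD libraries had the highest endothelial means of the 5, at acinar shares of 19.8% and 11.8%, against 15.7% in LFD replicate 3. The part of acinar tissue in the endothelial difference was not tested. With the acinar score as a covariate 16 genes passed, in a fit where 2.94% of all genes passed as higher. Without LFD replicates 1 and 2 the median was 0.87. Leaving out a single LFD or KD library gave 12 to 17 genes. Over all single omissions the median ran from 0.584 to 0.676. Ketogenic libraries had means between 3.66 and 4.37. Fibroblast, stellate cell and pericyte genes, the other vascular and stromal neighbours, had no member of 32 that passed and a median of -0.44. Without LFD replicate 3, 12 of them passed as lower, in a fit where 9.06% of all genes did. Without LFD replicates 1 and 2 the median was 0.35.

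**Figure D3:**
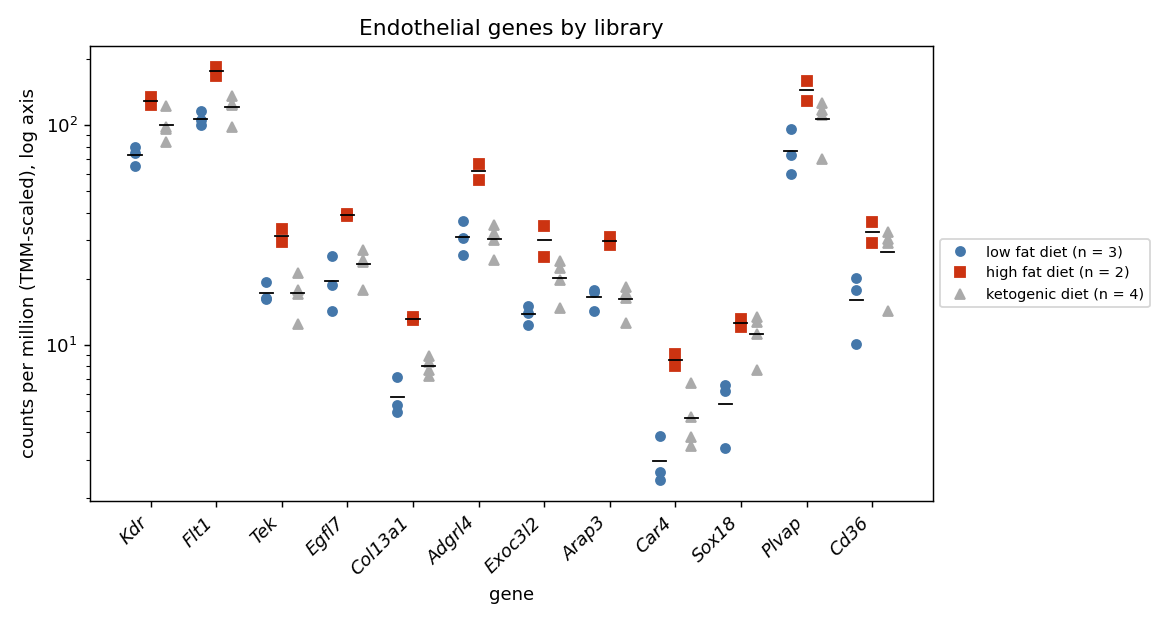
Level of 12 endothelial genes in each library (log axis, CPM), with symbols as for the early genes and the group mean as a bar. Both high fat libraries lie above all 3 low fat libraries for every gene drawn, which the choice of genes largely fixed. Most were named by a rule that requires this separation, and Plvap was chosen after its values were seen. Pecam1 and Cdh5, which overlap, are not drawn.

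Epithelial genes of ducts and acini lay mostly below 0. All but 1 of 24 tested duct genes were below 0, 10 passed, and the median log2 difference was -0.85. Cftr, the chloride channel of duct cells, was at 16.6, 12.9 and 7.69 CPM on LFD and at 3.00 and 2.77 CPM on HFD (log2 difference -2.10 ± 0.36, SE, adjusted p of 0.134 in edgeR and 2.34e-05 in DESeq2). Krt19, a keratin of ductal epithelium, was at 54.0, 46.2 and 19.1 CPM against 9.00 and 11.1 CPM. Spp1 (osteopontin) was at 219.9, 204 and 189 CPM against 113 and 82.8 CPM. Krt8, a keratin of simple epithelia, was at 148, 161 and 105 CPM against 75.7 and 64.9 CPM. Groups did not overlap for any of the 4. All 40 tested acinar genes were below 0, with a median of -1.02 that ran from -0.603 (without HFD replicate 2) to -1.64 (without HFD replicate 1). In the main fit 5 passed. With only the LFD and HFD libraries 13 passed, in a fit where 7.21% of all genes passed as lower. At the same unadjusted p, 26 were lower in limma-voom and 28 with the replicate number as a block, as were 8.45% and 10.66% of all genes. With no low-count filter 2 of 43 passed. With the acinar covariate 6 passed as lower and 8 as higher. Ketogenic acinar shares ran from 21.3% to 63.9%, and the LFD libraries also differed widely among themselves. How far either spread set these counts was not tested. The amylase gene Amy2b was at 229.7, 221 and 57.8 CPM against 24.5 and 23.05 CPM. Amylase genes are near-identical copies, so counts for each are uncertain. The duct count was 12 with the acinar score as a covariate, in a fit where 4.78% of all genes passed as lower. The duct median was -0.705 without HFD replicate 2 and -0.481 without LFD replicates 1 and 2. For acinar genes, single omissions gave 2 (LFD replicate 1), 11 (LFD replicate 3) and 14 (KD replicate 4). In these fits 4.75%, 9.06% and 7.84% of all genes passed as lower. The acinar median was -0.08 without LFD replicates 1 and 2.

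**Figure D4:**
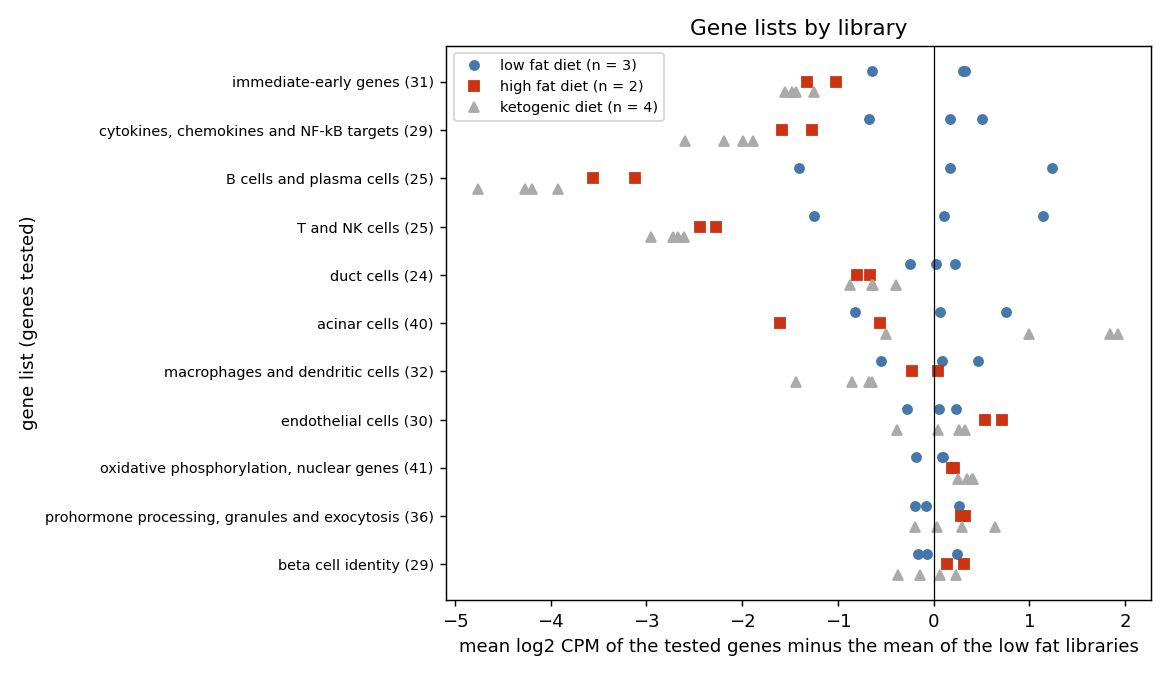
Mean log2 CPM of 11 gene lists in each library minus the mean of the low fat libraries (horizontal axis), 1 row a list with the number of genes tested, and symbols as for the early genes. Low fat replicates spread widely for lymphocyte and acinar genes, while endothelial genes place both high fat libraries (red squares) to the right of all low fat libraries.

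Endocrine transcripts differed less. None of the 6 hormone genes passed. Ins1, the second insulin gene of rodents, was at 9859, 14074 and 15790 CPM on LFD and at 20157 and 19645 CPM on HFD, a log2 difference of 0.59 ± 0.57 (SE) with an adjusted p of 0.734 in edgeR, although the libraries did not overlap. Ins2 overlapped between groups, with a difference of 0.46 ± 0.65 (SE). Together both genes made up 4.77%, 6.20% and 8.02% of counts on LFD and 10.6% and 9.54% on HFD, a mean of 6.33% ± 1.63 (SD, n = 3) against 10.1% ± 0.73 (SD, n = 2). Per TMM-scaled library size the difference of 3.73 percentage points became 2.18. On that scale the diets overlapped, at 4.537%, 5.005% and 6.399% on LFD against 8.629% and 6.354% on HFD. With the acinar score as a covariate the log2 differences of Ins1 and Ins2 were 0.043 and 0.058. Iapp, the amyloid peptide co-secreted with insulin, was at 6738, 7308 and 8487 CPM against 15773 and 10449 CPM (log2 difference 0.80 ± 0.51, SE). Glucagon (Gcg), somatostatin (Sst) and pancreatic polypeptide (Ppy) had differences of -0.30, -0.08 and -0.47, each smaller than its standard error.

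Genes that define beta cells did not pass in the main edgeR fit. Of 29 tested, 23 were above 0 and none passed in either direction, with a median of 0.29. Omitting HFD replicate 2 gave a median of -0.015. Omitting the first or the second LFD library gave 0.15 or 0.19, and omitting both gave -0.002. Mafa, a factor of mature beta cells, was at 74.7, 87.0 and 103 CPM on LFD and 92.7 and 244 CPM on HFD, so that HFD replicate 2 alone set the mean apart. Of 36 granule and exocytosis genes, 31 were above 0 and 1 passed, with a median of 0.33. That gene was Rab3a, a GTPase of granule docking, at 19.01, 21.7 and 24.2 CPM against 28.1 and 40.6 CPM. Without LFD replicate 3, 6 beta cell genes and 10 granule genes passed as higher, in a fit where 6.77% of all genes did, and without LFD replicate 1 none of either list passed as higher. With the acinar score as a covariate the medians were -0.02 for beta cell genes and 0.006 for granule genes. In limma-voom 8 beta cell genes and 7 granule genes were higher at an unadjusted p below 0.05, as were 8.03% of all genes. With the replicate number as a block in edgeR 11 of each list were, and 6.3% of all genes. For glucose sensing and excitability 3 of 33 passed as lower and none as higher, a share near the background. Without LFD replicate 3 there were 5 higher and 3 lower, and without LFD replicate 1, KD replicate 2 or KD replicate 3 there was 1 lower. The 3 were Itpr3, an ER calcium channel, at 74.8, 80.7 and 77.5 CPM against 52.3 and 45.2 CPM, Adcy5, an adenylate cyclase, with a log2 difference of -0.80, and Ryr2, the ryanodine receptor, with -1.52. The proliferation marker Mki67 overlapped at 8.40, 21.2 and 3.52 CPM against 7.003 and 1.63 CPM. Among cell cycle genes 2 of 37 passed as lower, a share near the background of 6.44%. Without LFD replicate 3 the count was 5 of 37, in a fit where 9.06% of all genes passed as lower. The median of -0.421 ran from -0.866 to -0.143 when single libraries were left out.

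Genes of low level had the largest differences that the naming rule picked. Slc35f4, a solute carrier of little known function, was at 0.86, 0.49 and 0.94 CPM on LFD and at 7.05 and 7.21 CPM on HFD, a log2 difference of 3.22 ± 0.55 (SE). It was the largest increase named by the rule and had an adjusted p of 0.134 in edgeR and 2.71e-05 in DESeq2. Aldh1a3, a retinaldehyde dehydrogenase used as a marker of failing and dedifferentiated beta cells, was at 4.54, 3.50 and 2.11 CPM against 14.2 and 10.2 CPM. Its log2 difference of 1.86 ± 0.75 (SE) had an adjusted p of 0.471 in edgeR, with no overlap between diets. Serpina7, thyroxine-binding globulin, was at 5.21, 7.48 and 4.08 CPM against 42.4 and 10.6 CPM, so that HFD replicate 1 set its size. S100z, a calcium-binding protein, was at 1.47, 1.88 and 3.71 CPM against 7.75 and 7.42 CPM. Ankrd34b was at 2.39, 1.93 and 2.20 CPM against 8.75 and 3.94 CPM. Among the ketogenic libraries, replicate 4 stood nearest to HFD in these genes, with 11.2 CPM of Aldh1a3 and 22.7 CPM of Serpina7, while the other 3 held at most 3.03 CPM and 5.75 CPM. Pxylp1, a phosphatase of proteoglycan synthesis, was at 14.8, 17.9 and 17.7 CPM on LFD and 29.965 and 26.4 CPM on HFD.

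Cacna1e, the pore subunit of R-type calcium channels, was the opposite case, at 9.56, 8.60 and 4.13 CPM on LFD and at 0.90 and 0.88 CPM on HFD. Its log2 difference was -3.05 ± 0.49 (SE), with an adjusted p of 1.78e-06 in DESeq2. Of 23 tested genes used as markers of dedifferentiation and stress, 3 passed as higher and 6 as lower. The higher count was 1 without LFD replicate 1 or LFD replicate 3. Over omissions of single LFD or KD libraries the lower count ran from 4 (LFD replicate 2) to 9 (LFD replicate 3). The median was -0.417 without HFD replicate 1 and -0.328 without HFD replicate 2. Aldh1a3 and Serpina7 were among the 3 higher genes. The 6 lower genes included Ddit3 (CHOP), the ER stress factor, at 9.26, 13.9 and 17.3 CPM against 6.40 and 8.59 CPM, and the progenitor factor Sox9 at 28.0, 22.9 and 22.2 CPM against 15.8 and 9.01 CPM. Of 28 genes that beta cells normally keep low, 10 passed as lower and 1 (Aldh1a3) as higher. With the acinar score as a covariate 2 of them passed as lower, and without LFD replicates 1 and 2 none did. Single omissions gave 4 (LFD replicate 1 or 2), 15 (KD replicate 4) and 19 (LFD replicate 3). In these fits 4.75%, 4.21%, 7.84% and 9.06% of all genes passed as lower. The median was -0.785 without HFD replicate 1 and -0.621 without HFD replicate 2.

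**Figure D5:**
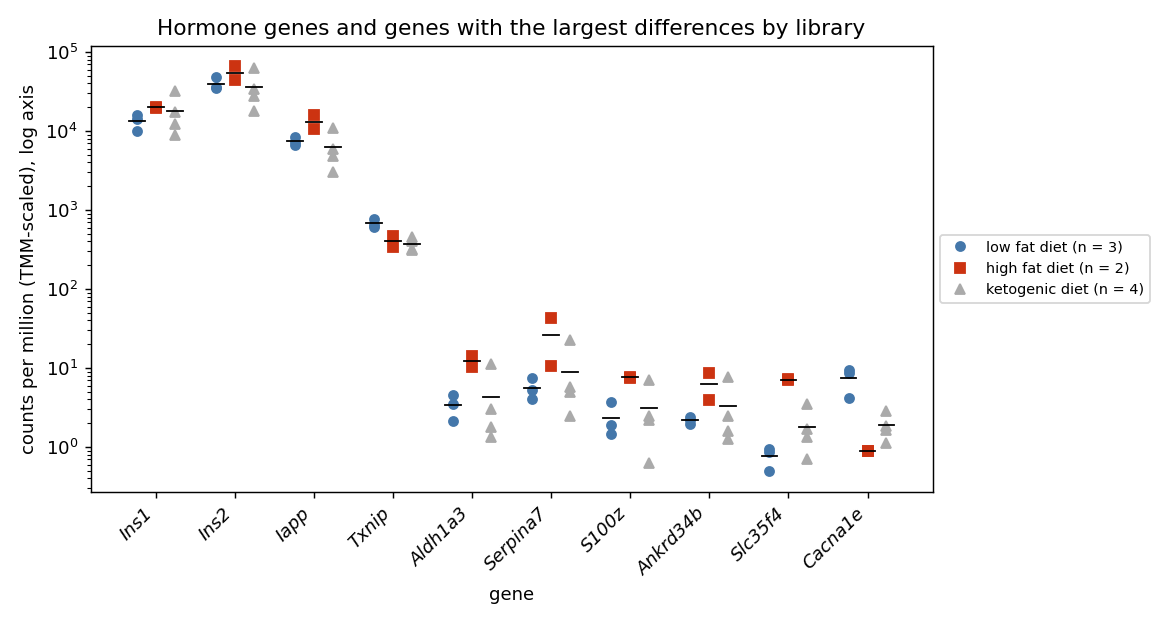
Level of 3 hormone genes, Txnip, Cacna1e and genes with large increases in each library (log axis, CPM), with symbols as for the early genes and the group mean as a bar. Genes with larger decreases than Cacna1e, such as Pax5, are not drawn. Ins1 and Iapp lie higher in both high fat libraries than in all 3 low fat libraries, while Ins2 overlaps, and none of these hormone genes passed. Slc35f4 and Cacna1e, named by a rule that requires separation, place both high fat libraries apart from all 3 low fat libraries in opposite directions.

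Differences in metabolic genes were small. Of 41 nuclear genes of oxidative phosphorylation, 10 passed as higher and none as lower, against a background of 3.55%, with a median of 0.17. Cox7a2, a subunit of cytochrome oxidase, was at 31.8, 34.4 and 34.4 CPM on LFD and at 48.3 and 42.8 CPM on HFD. Ndufc2, a complex I subunit, and Ndufa4, now assigned to cytochrome oxidase, differed by 0.80 and 0.63 on the log2 scale. The count was 4 with LFD replicate 2 omitted and 6 with LFD replicate 3 omitted, in fits where 2.33% and 6.77% of all genes passed as higher. The median ran from 0.1 to 0.238 when single libraries were left out, and was 0.37 with both LFD replicates 1 and 2 omitted. None of the 13 mitochondrially encoded genes passed, with a median of 0.014 that was -0.761 without HFD replicate 1 and 0.539 without HFD replicate 2.

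Among 26 genes of lipid synthesis and ChREBP targets, 1 passed as higher and 5 as lower, with a median of -0.155. Without HFD replicate 1 the median was 0.054, and without LFD replicate 1 or LFD replicate 2 there were 3 lower genes. Fads2, the delta-6 desaturase of polyunsaturated fatty acids, was at 43.0, 36.3 and 30.2 CPM on LFD and at 18.2 and 13.5 CPM on HFD. Fads1, the delta-5 desaturase, was at 46.2, 36.6 and 30.7 CPM against 24.6 and 26.9 CPM. Txnip, a glucose-induced inhibitor of thioredoxin, was at 768, 613 and 647 CPM against 467 and 344 CPM, a log2 difference of -0.74 ± 0.23 (SE) with an adjusted p of 0.366 in edgeR. Pnpla3, a lipid droplet hydrolase, was higher, at 0.37, 1.57 and 0.66 CPM against 3.10 and 2.35 CPM. In fatty acid oxidation and PPAR targets 3 of 39 passed in each direction, and omissions of single LFD or KD libraries gave 2 to 6 higher and 1 to 3 lower. Acat1, the mitochondrial thiolase of ketone metabolism, was at 50.8, 43.1 and 44.1 CPM against 72.0 and 59.5 CPM. Creb3l3, a fasting-induced factor, was at 0.61, 0.40 and 0.47 CPM against 1.401 and 1.93 CPM. On the ketogenic diet it was at 5.69 to 16.96 CPM. Pdk4, the kinase that blocks pyruvate oxidation and a usual PPAR target, was at 43.0, 27.2 and 37.4 CPM on LFD and at 24.6 and 24.3 CPM on HFD.

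In the clock list 2 of 19 passed as higher and 5 as lower. Clock, the activating partner, was at 109.9, 107 and 144 CPM on LFD and at 175 and 168 CPM on HFD. Its target Per2 was at 95.3, 113 and 77.3 CPM against 59.3 and 56.9 CPM. The output factor Tef was at 107, 98.9 and 116 CPM against 79.2 and 53.6 CPM. Arntl (BMAL1), named after its values were seen, was at 3.68, 4.08 and 3.19 CPM against 4.25 and 9.60 CPM. The hour of tissue collection is not in the labels, so time of day and diet cannot be told apart. No clock gene passed as higher once LFD replicate 1 or LFD replicate 2 was omitted. The count of lower clock genes was 3 without LFD replicate 2, LFD replicate 3 or KD replicate 3. The median of the list ran from -0.449 to -0.315 when single libraries were left out. Of 20 heat shock genes, 6 passed as lower. Bag3, a co-chaperone of HSP70, was at 36.4, 42.9 and 49.4 CPM against 23.3 and 25.5 CPM. The near-identical genes Hspa1a and Hspa1b, whose counts are uncertain, differed by -1.06 each. Here LFD replicate 3 was the highest library, unlike in the early genes. The median of -0.432 ran from -0.86 to -0.168 when single libraries were left out.

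In the list of beta cell compensation, which holds insulin signalling genes, 3 of 20 genes passed as lower, with 1 without LFD replicate 1. Irs2, the insulin receptor substrate of beta cells, was at 62.2, 66.4 and 73.4 CPM against 35.2 and 44.0 CPM. Cish, a target of prolactin and growth hormone signalling, was at 49.2, 31.1 and 38.6 CPM against 12.3 and 9.85 CPM. Igf1r, the receptor of insulin-like growth factor, was at 134, 136 and 141 CPM against 100.5 and 103 CPM. For alpha cell genes 1 of 17 passed in each direction, and the same held for 12 delta and PP cell genes, where the delta cell factor Hhex was at 18.8, 14.7 and 13.6 CPM against 9.20 and 8.17 CPM. In the other 13 lists at most 3 members passed in either direction with all libraries, and up to 6 without LFD replicate 3 (Reg family). These were adipocytes (10 tested), Schwann cells and neurons (15), mesothelial cells (8), erythrocytes and platelets (8), lipid droplets (27), cholesterol synthesis (29), glycolysis and the citric acid cycle (35), interferon-stimulated genes (30), ER to Golgi transport (44), ribosomal proteins (76), the unfolded protein response (36), antioxidant defence (32) and the Reg family (6).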

How the data were processed

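The labels' protocols give Trizol-chloroform extraction, poly(A) selection and strand-specific NEBNext Ultra II Directional libraries. The authors deposited raw counts per Ensembl gene for all 9 samples, and the submitters' processing notes name cutadapt 1.16, STAR 2.7.9a, featureCounts 1.6.3 and DESeq2 1.40.2, with no settings. Their build is GRCm39, whereas the reference used here for symbols and promoters is GRCm38, so no coordinate was taken from the files. Symbols matched 51948 of 56941 genes.

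Counts were tested in edgeR 4.0.16 (R 4.3.3): filterByExpr, TMM, robust glmQLFit with a mean per diet over all 9 libraries, two-sided glmQLFTest of HFD against LFD, Benjamini-Hochberg over 18548 genes. SE is the size of the log2 difference over the square root of F. DESeq2 1.42.0 and limma 3.58.1 were alternatives, beside other scalings and filters, an acinar covariate, a replicate block and the omission of libraries. Library totals of 15513502 to 26588390 counts give 95% intervals of at most 0.024 percentage points around a share, for counting error only. The procedure was tested on simulated data.

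The comparison, the 38 gene lists and the naming rule were chosen with earlier results of these data known. The rule takes the 12 lowest p-values in each direction (at least 5 CPM in the higher group, no overlap, unnamed models, pseudogenes and antigen receptor segments left out), the 6 largest differences in each direction, 9 preset genes and up to 4 members per list. Some genes it names are summarised in counts only, and the values of 2 are not reported here. Deviations of same-numbered LFD and HFD libraries correlated at 0.069 and 0.075, and the labels tie the numbers to nothing. Deviations of 2 HFD libraries mirror each other by construction, so these values can hardly show or exclude a pairing.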

Additional observations from a re-analysis of the deposited data

How the results depend on the processing

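The count of 0 genes past the adjusted threshold in edgeR, with 1853 at an unadjusted p below 0.05, depended on the fit. Genes past the threshold numbered 81 with no low-count filter, 10 in limma-voom and 268 in DESeq2, and 0 to 194 when single libraries were left out, with 194 (189 of them lower) without LFD replicate 3. At the unadjusted p there were 1215 genes with a filter of 5 CPM, 3056 in limma-voom, where 1489 were higher and 1567 lower, 1181 to 2893 without single libraries, and 1098 without LFD replicates 1 and 2, where 601 were higher and 497 lower. DESeq2 size factors gave 573 higher and 1285 lower. DESeq2 called 56 (without LFD replicate 2) to 572 (without LFD replicate 3) genes, 65 and 72 without HFD replicates 1 and 2, 125 without LFD replicate 1 and 423 without KD replicate 4. The cause of these shifts was not tested. With the replicate number as a block, edgeR called 395 genes and counted 3146 at the unadjusted p, and DESeq2 called 672. The block also used the numbers of the ketogenic libraries. The labels tie the numbers to nothing, so this block is no pairing that the labels give. Between LFD and HFD 2 pairs share a number, and the correlation of their deviations can hardly show or exclude a pairing. The shares of insulin and acinar counts kept their direction under every alternative run.

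Of 95 genes named, 87 kept the direction of their difference in each alternative that could be fitted to them, which was all 20 except for Cd3d, Pnpla3, Ryr2 and Spib (19) and Tnfrsf13c (18). The others were Ppy (0.12 in limma-voom, -1.16 to 0 without single libraries), Sst (0.007 in limma-voom, -0.33 to 0.13 without single libraries), Xbp1 (0.033 with the acinar covariate), and Ighm, Jchain, Mki67, Nr4a1 and Thbs1 (0.478, 1.24, 0.27, 0.35 and 0.24 without LFD replicates 1 and 2). Many of the 95 genes were named for having no overlap between diets. Omitting libraries can hardly reverse such a gene, so the count of 87 partly follows from the choice of genes. Depth was similar in the 5 libraries, and the number of HFD libraries limits these comparisons. Genes with few HFD counts, such as Pax5 and Cd3d, have wide counting intervals.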
